A study of Mus musculus with 6 samples.

Results

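The mir-106a-363 and mir-106b-25 clusters are the paralogs of the mir-17-92 cluster in the mouse genome. Their 9 genes were taken by name from a deposited table of 898 microRNA (miRNA) genes: mir-106a, mir-18b, mir-20b, mir-19b-2, mir-92a-2 and mir-363 form the cluster on chromosome X, and mir-106b, mir-93 and mir-25 form the cluster inside the gene Mcm7. All 9 had a value above 0 in both groups.

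Small RNAs were sequenced from the mouse embryonic stem cell (ESC) line E14Tg2a. Of the 6 libraries, 3 came from pluripotent ESCs kept in leukemia inhibitory factor (LIF), the cytokine that holds these cells in self-renewal. The other 3 came from monolayers of the same line after LIF was withdrawn and 1 µM retinoic acid (RA) was added for 48 hours, called neuronal cells (NCs). All cells were of this line, for which the labels name no transgene or deletion, and every library was bulk RNA, in which fewer cells of a type and less RNA per cell cannot be told apart.

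A miRNA is a short RNA that guides Argonaute proteins to messenger RNAs, mainly through its seed, the bases near its 5′ end. The mir-17-92 cluster, also called oncomiR-1, and its paralogs arose by duplication, and each makes several miRNAs from a shared primary transcript. Members with the AAAGUGC seed are known to target the cell cycle inhibitor Cdkn1a (p21) and the TGF-beta receptor Tgfbr2, and the same core is found, shifted, in the ESC-specific miRNAs of the mir-290 and mir-302 clusters. Mcm7, the host of mir-106b-25, encodes a subunit of the replicative helicase and is driven by E2F factors in proliferating cells.

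The mature sequences are shown because the clusters were compared by seed family. They are from RefSeq (GRCm38.p6), written 5′ to 3′, with the seed (bases 2 to 8) in capitals. All 9 members were matched by symbol. The first 4 lines share the seed AAAGUGC, mir-18b and mir-19b-2 stand alone among the members, and the last 3 share AUUGCAC.
mir-106a (miR-106a-5p): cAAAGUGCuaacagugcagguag
mir-20b (miR-20b-5p): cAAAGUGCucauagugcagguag
mir-106b (miR-106b-5p): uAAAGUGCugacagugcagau
mir-93 (miR-93-5p): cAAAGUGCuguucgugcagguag
mir-18b (miR-18b-5p): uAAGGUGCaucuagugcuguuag
mir-19b-2 (miR-19b-3p): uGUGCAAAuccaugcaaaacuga
mir-92a-2 (miR-92a-3p): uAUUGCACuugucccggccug
mir-363 (miR-363-3p): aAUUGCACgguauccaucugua
mir-25 (miR-25-3p): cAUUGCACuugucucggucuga

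Except for mir-363, which shares only its seed family with mir-92a-1, each X-linked member has a mir-17-92 counterpart whose mature sequence differs little or not at all, so reads could be exchanged between them in counting. The counterparts mir-17, mir-20a and mir-18a are shown for this reason, and substitutions are counted from 1 at the 5′ end with the base of the X-linked member first. Mature mir-106a differed from mir-17 by A10U alone, mir-20b from mir-20a by C1U and C10U, and mir-18b from mir-18a by U18A and U20A. No substitution separated mir-19b-2 from mir-19b-1 or mir-92a-2 from mir-92a-1.
mir-17 (miR-17-5p): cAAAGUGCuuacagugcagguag
mir-20a (miR-20a-5p): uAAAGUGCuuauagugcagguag
mir-18a (miR-18a-5p): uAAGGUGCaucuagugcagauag

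On GRCm38, the assembly that the submitters' processing notes call mm10, the X-linked hairpins lay within chrX:52741693-52742567 on the minus strand, a stretch of 875 bases. Of these, mir-106a, at the 5′ end, overlapped an exon of the noncoding gene Kis2 by 5 bases, and the other 5 hairpins overlapped no other annotated gene. The mir-106b-25 hairpins lay within chr5:138165321-138165818 on the minus strand, 498 bases inside Mcm7 and on its strand. The hairpin of mir-106b was intronic in every annotated Mcm7 transcript, and those of mir-93 and mir-25 lay in introns that are kept as exon sequence only in retained-intron transcripts. The mir-17-92 hairpins lay on chromosome 14 within the noncoding RNA gene Mir17hg.

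The deposited values were group means of normalized reads, that is, of each library's reads over its own size factor. Whole reads per library were worked back from these means for 98.4% of the miRNAs above 0 in ESCs and 98.5% in NCs, the 9 members included. In each group, A names the library of largest size factor, B the next and C the smallest, and none could be tied to a labelled replicate. The size factors spanned 4.21-fold, and the resolved reads per library ran from 175534 to 708816. ESC marker miRNAs of the mir-290 and mir-302 clusters made up 11.95% of the summed mean in ESCs and 1.96% in NCs, with all 12 lower in NCs, and 6 RA-responsive or Hox-cluster miRNAs, mir-10a among them, went from 0.325% to 50.6%, with 4 of the 6 higher in NCs and mir-196a-1 and mir-196a-2 lower. All 6 neuronal mir-9 and mir-124 genes had a higher mean in NCs, at 2319 normalized reads in sum against 1272 in ESCs. This was 0.145% of the summed mean against 0.110%, so NCs held few reads of these defining neuronal markers. The 4 muscle markers were listed at 0 in both groups, the liver marker at 0.411 normalized reads or below, the 2 blood markers at 2.99 in sum or below, and the 5 fibroblast markers at 161 in sum or below, with mir-143 listed at 0.

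By the deposited group means, neither cluster sum moved far from its ESC level under RA. Summed over its 6 genes, the mir-106a-363 cluster had 6663 normalized reads in ESCs and 7093 in NCs. The mir-106b-25 cluster had 12094 and 11025, of which mir-93 alone gave 10635 and 9735, so its sum mostly described mir-93. The mir-17-92 cluster, summed the same way, went from 7459 to 10721. On the log2(mean + 1) scale the median NC-over-ESC ratio was -0.01 over the 9 members, -0.00 over mir-106a-363, -0.13 over mir-106b-25 and 0.45 over mir-17-92, beside 0.07 over the 634 miRNAs with a mean above 0. As a share of all summed reads both clusters were lower in NCs, at 0.442% against 0.578% for mir-106a-363 and 0.688% against 1.05% for mir-106b-25. When both groups were given an equal total, log2 ratios all shifted by -0.48, and leaving mir-10a out of that total shifted it by 0.44, so the direction of a change near 0 depended on the scaling.

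Among the AAAGUGC members, mir-93 had by far the most reads of any gene of both clusters, ranking at position 16 of the table in ESCs and 19 in NCs. It had 11901, 9886 and 10119 normalized reads in ESC libraries A, B and C, and 9164, 9398 and 10643 in the NC libraries. The groups overlapped, and the highest library was within 1.204-fold of the lowest in ESCs and 1.16-fold in NCs, the narrowest range of any member in NCs. The NC mean of mir-93 allowed 2 sets of whole reads. The set kept had libraries A and B within 1.03-fold of each other. The other, at 5608, 21668 and 1929 normalized reads, had them 3.86-fold apart, beyond the 1.41-fold limit of the 42 abundant miRNAs with 1 solution. The choice was made for alike libraries A and B, so the narrow NC range of mir-93 follows in part from it. Every later result that uses the NC reads of mir-93 rests on this choice.

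The first gene of the Mcm7 cluster, mir-106b, had 1487, 1328 and 285 normalized reads in ESCs and 1406, 1274 and 446 in NCs. Libraries A and B lay together in both groups, and library C was the lowest in both. Its nearly equal group means, 1033 ± 653 in ESCs and 1042 ± 520 in NCs (SD, n = 3), therefore carried a wide spread.

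On chromosome X, mir-20b had the most reads of its cluster, at 3450, 3336 and 1969 normalized reads in ESCs and 3426, 3332 and 2055 in NCs. Each NC library was close to the ESC library of the same rank, and the means were 2918 ± 824 and 2938 ± 766 (SD, n = 3). The neighbouring mir-106a had 2092, 2068 and 1370 normalized reads in ESCs and 2391, 2471 and 1925 in NCs. Both deeper NC libraries were above every ESC library, but NC library C was below ESC libraries A and B, so the groups overlapped, and the means were 1843 ± 410 and 2262 ± 294 (SD, n = 3).

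The AAGGUGC gene mir-18b, whose seed differs from the preceding one by a single base, had 1843, 1872 and 835 normalized reads in ESCs and 1886, 1764 and 894 in NCs. Library C was lowest in both groups and the means were 1517 and 1515. The miR-19 seed was represented by mir-19b-2 at 13.6, 14.9 and 12.8 normalized reads in ESCs and 18.2, 18.4 and 3.42 in NCs. These values rested on 7 to 22 reads per ESC library and 2 to 42 per NC library, and the groups overlapped.

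Among the AUUGCAC members, mir-363, the last gene of its cluster, had 337, 329 and 406 normalized reads in ESCs and 321, 325 and 421 in NCs. The means, 357 ± 42.2 and 355 ± 56.6 (SD, n = 3), were nearly equal and library C was here the highest of each group. The copy mir-92a-2 was at 9.25, 10.7 and 21.9 normalized reads in ESCs and 13.4, 8.19 and 8.55 in NCs, from 5 to 31 reads per library.

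The largest shift of a group mean belonged to mir-25, the last gene of the Mcm7 cluster and a miRNA known for repressing the pro-apoptotic Bcl2l11 (Bim). It had 225, 181 and 870 normalized reads in ESCs and 189, 235 and 320 in NCs. Its mean was 425 ± 385 in ESCs and 248 ± 66.5 in NCs (SD, n = 3), and ESC library C alone gave 68.2% of the ESC sum. The log2 ratio of the group means was -0.78 with that library and 0.29 without it, and in the deeper libraries the mean was 203 in ESCs and 212 in NCs.

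**Figure D1:**
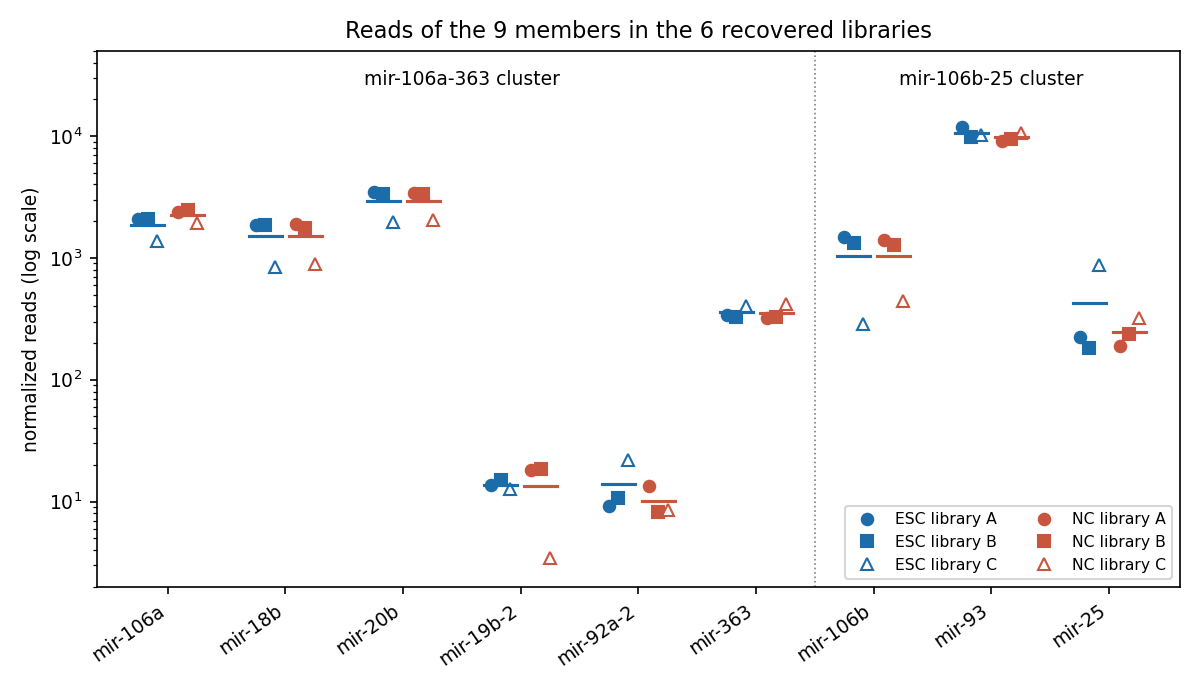
Normalized reads (log axis) of the 9 members in the 3 ESC libraries (blue) and 3 NC libraries (red), with libraries A, B and C as circles, squares and open triangles and short lines at the group means. For all 9 members the libraries of both groups overlap, and library C stands apart from A and B for mir-106b (285 in ESCs, 446 in NCs) and mir-25 (870 in ESCs).

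The order of the members was the same in both groups down to mir-106b. The 9 mature arms are 21 to 23 bases long, so reads were compared without a length term. The order is one of reads, and how evenly different sequences were captured was not tested. In ESCs the order was mir-93, mir-20b, mir-106a, mir-18b, mir-106b, mir-25, mir-363, mir-92a-2 and mir-19b-2. The ESC libraries of mir-93 lay above those of every other member, and those of mir-363 and mir-25 above those of mir-92a-2 and mir-19b-2, while all other neighbours in that order overlapped. In NCs mir-93 was again apart from all others, mir-363 stood above mir-25, and mir-19b-2 above mir-92a-2. For mir-93 this held in the set of reads kept. In the other set its library C was at 1929 normalized reads, below every NC library of mir-20b. The NC libraries of mir-106a were all above those of mir-18b, those of mir-106b all above those of mir-363, and those of mir-363 all above those of mir-25, the last by 321 against 320 normalized reads at the closest.

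A limma-voom fit of NCs against ESCs over all 328 miRNAs that passed a filter of at least 10 reads in 3 libraries asked whether any member changed. All 9 members passed the filter. None of the 9 members had a Benjamini-Hochberg adjusted p under 0.05, where 15.5% of the tested miRNAs (51 of 328) did, and none had an unadjusted p under 0.05. For none of the 9 were the groups free of overlap, which was the case for 30.5% of the tested miRNAs (100 of 328). The limma-trend fit, without voom weights, likewise called none of the 9.

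The log2 fold change (FC) of mir-106a was the largest upward one, 0.31 ± 0.29 (SE), with an adjusted p of 0.622 in limma and a 95% interval of -0.38 to 1.00. For mir-25 it was -0.50 ± 0.62 (limma adjusted p = 0.735), with an interval of -1.96 to 0.97. The values for mir-20b, 0.02 ± 0.35, mir-18b, 0.02 ± 0.46, and mir-363, -0.00 ± 0.25, were near 0. The interval of mir-363, -0.59 to 0.58, and that of mir-93, -0.69 to 0.42 around -0.14, were the narrowest. That of mir-106b, -1.59 to 2.04 around 0.23, was the widest. The interval of mir-93 rests on the NC reads kept for it. A log2 FC of 1 or more in either direction lay outside the interval for mir-20b, mir-363 and mir-93 and inside it, or at its edge, for the other 6.

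Library C deviated from A and B in the same miRNAs in both groups. Over the 244 miRNAs with a mean of at least 20 normalized reads in both groups, the log2 difference between library C and the mean of A and B correlated between ESCs and NCs at r = 0.82 (rho = 0.89), as a description across miRNAs, which are not independent. The SD of this deviation was 1.30 (ESCs) and 1.18 (NCs), whereas A and B differed from each other with an SD of 0.297 and 0.230. The members split in this measure. The deviation was -2.30 in ESCs and -1.58 in NCs for mir-106b, -1.15 and -1.03 for mir-18b, -0.78 and -0.72 for mir-20b, and -0.60 and -0.34 for mir-106a. It was near 0 for mir-93, at -0.10 and 0.20, and above 0 for mir-363, at 0.28 and 0.38, and for mir-25, at 2.10 and 0.60. Thus the first and the last gene of the Mcm7 cluster lay on opposite sides within the same library. Whether library preparation had a part in this was not tested.

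**Figure D2:**
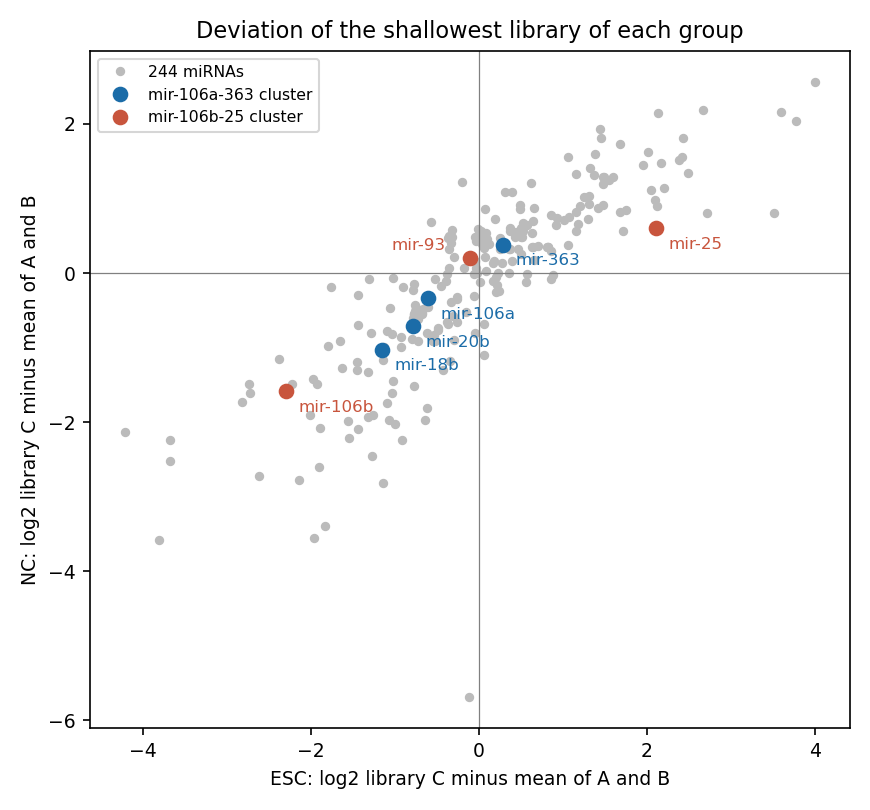
Log2 normalized reads of library C minus the mean of libraries A and B, in ESCs (horizontal) and NCs (vertical), for 244 miRNAs (grey) and the 7 members among them (blue, mir-106a-363; red, mir-106b-25). The grey points follow a diagonal (r = 0.82), with mir-106b at -2.30 and -1.58 and mir-25 at 2.10 and 0.60 toward its ends.

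Library C set most of the spread, so 2 further fits gave narrower intervals. With the rank of the library within its group (the library set) as a covariate, none of the 9 members passed, where 41.2% of the tested miRNAs (135 of 328) did. In the deeper libraries A and B alone, none of the 9 passed either, where 50.9% (171 of 336) did. The log2 FC of mir-106a was 0.30 ± 0.16 (limma adjusted p = 0.162) with the covariate and 0.22 ± 0.12 (limma adjusted p = 0.141) in the deeper libraries. For mir-93 the deeper libraries gave -0.23 ± 0.12 (limma adjusted p = 0.120). For mir-20b they gave -0.01, with a 95% interval of -0.26 to 0.25, and for mir-18b -0.02, with -0.29 to 0.24. The intervals for mir-363, mir-106b and mir-25 were -0.34 to 0.25, -0.35 to 0.21 and -0.29 to 0.40. A change of 1.5-fold (0.58 on the log2 scale) in either direction lay outside the deeper-library interval of these 7 members, but inside that of mir-19b-2, -0.32 to 1.04, and mir-92a-2, -0.65 to 1.06. These intervals leave out library C, in which the NC-over-ESC ratio was 1.57 for mir-106b and 0.368 for mir-25, and they hold for the deposited scaling alone, since the shifts given above would move them by -0.48 or 0.44.

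The mir-17-92 genes gave the nearest comparison, since 5 of the 6 X-linked members have a near-identical counterpart there. None of its 6 genes passed in the fit of all 6 libraries. With the library set as a covariate, mir-17 (0.63 ± 0.15, limma adjusted p = 0.00805) and mir-20a (0.54 ± 0.16, limma adjusted p = 0.0232) rose, and in the deeper libraries mir-17 (0.57 ± 0.12), mir-20a (0.44 ± 0.12) and mir-92a-1 (0.74 ± 0.13) rose, with limma adjusted p of 0.00100, 0.00799 and 0.000345. These were 2 of 6 genes where 41.2% of the tested miRNAs (135 of 328) passed, and 3 of 6 where 50.9% (171 of 336) did. The counts were thus not above the share over all tested miRNAs. The call of mir-92a-1 rested on leaving library C out: with the covariate its log2 FC was 0.26 ± 0.30 (limma adjusted p = 0.515), and in library C it had 1014 normalized reads in ESCs and 532 in NCs. The sizes also rested on the scaling, since in the fit of all 6 libraries, with no call, mir-17 was at 0.16 and mir-20a at 0.08 under an equal total and at 1.07 and 0.99 with mir-10a left out of it. In ESC libraries A, B and C mir-17 had 3135, 2985 and 1924 normalized reads, and in the NC libraries 4570, 4531 and 3266. Every NC library of mir-17 was thus above every ESC library. It was the only 1 of the 6 genes without overlap, where 30.5% of the tested miRNAs (100 of 328) had none.

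**Figure D3:**
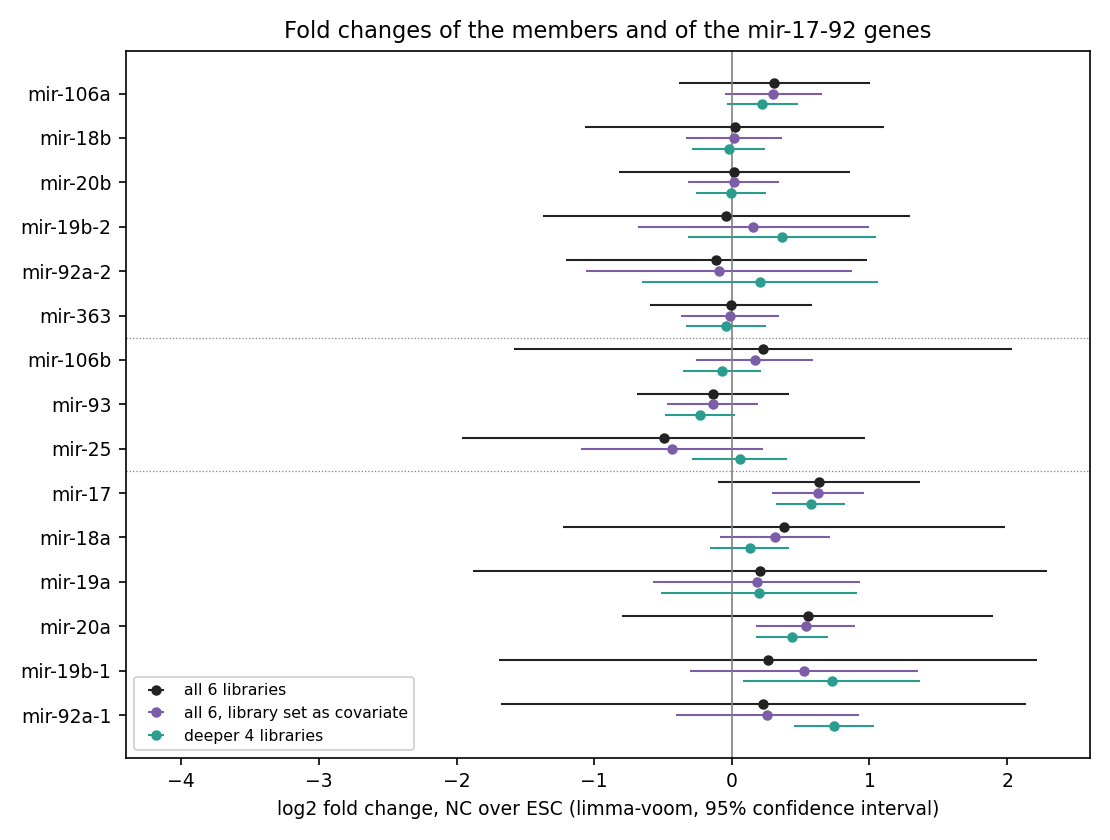
Log2 fold change of NCs over ESCs with its 95% confidence interval for the 9 members (upper rows, split by cluster) and the 6 mir-17-92 genes (lower rows), with dotted lines between the clusters, from limma-voom on all 6 libraries (black), with the library set as covariate (purple) and on the deeper 4 libraries (green). The intervals of the 9 members include 0 in all 3 fits, and those of mir-17 and mir-20a lie above 0 in the purple and green fits. In the green fit alone those of mir-92a-1 and mir-19b-1 lie above 0 too, though mir-19b-1 was not called.

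To compare the clusters without relying on size factors, ratios were taken within each library. There were 8 such ratios, each tested by an exact two-sided permutation test over the 6 libraries, in which 3 against 3 cannot give a p under 0.1. After adjustment over the 8, no p was below 0.8. In the AAAGUGC family, mir-106a plus mir-20b stood at 0.414, 0.482 and 0.321 of mir-106b plus mir-93 in ESC libraries A, B and C, and at 0.550, 0.544 and 0.359 in the NC libraries. Each NC library was above the ESC library of the same rank, the groups overlapped through library C, and the log2 difference was 0.25 (pooled SD 0.32, exact permutation p = 0.5), ranging from 0.09 without ESC library C to 0.45 without NC library C. Without mir-93 the difference was -0.03 (exact permutation p = 1), and 0.50 without ESC library C.

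In the AUUGCAC family, mir-92a-2 plus mir-363 over mir-25 was 1.54, 1.87 and 0.492 in ESCs and 1.77, 1.41 and 1.34 in NCs. ESC library C was the only one below 1, and the log2 difference of 0.42 (exact permutation p = 0.9) was -0.10 in the deeper libraries. Within the Mcm7 cluster, mir-25 over mir-106b was 0.151, 0.137 and 3.05 in ESCs and 0.134, 0.185 and 0.716 in NCs, so that library C was the highest in both groups and the log2 difference of -0.61 (exact permutation p = 0.8) was within the spread. It was 0.86 without ESC library C and 0.13 in the deeper libraries. Within the X-linked cluster, mir-363 over mir-106a was 0.161, 0.159 and 0.296 in ESCs and 0.134, 0.131 and 0.218 in NCs. It was lower in NCs in each of the 3 library sets, by a log2 difference of -0.33 (exact permutation p = 0.5), and the groups overlapped. Without ESC library C the difference was -0.03, and without NC library C it was -0.57.

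Against the mir-17-92 cluster, the ratio of mir-106a to mir-17 was 0.667, 0.693 and 0.712 in ESCs and 0.523, 0.545 and 0.590 in NCs. This was the one ratio of the 8 whose groups did not overlap, with a log2 difference of -0.32 (pooled SD 0.07) and an exact permutation p of 0.1, the smallest this design allows (adjusted p = 0.8). The ratio of mir-20b to mir-20a was 1.36, 1.28 and 2.36 in ESCs and 0.940, 1.01 and 1.43 in NCs, with a log2 difference of -0.54 (exact permutation p = 0.3). For mir-18b over mir-18a it was 1.44, 1.53 and 2.64 in ESCs and 1.28, 1.40 and 1.76 in NCs, with a log2 difference of -0.30 (exact permutation p = 0.5). Without ESC library C these last differences were -0.25 and -0.02, while that of mir-106a over mir-17 stayed between -0.37 and -0.28 with any library left out. All 3 ratios were lower in NCs in each of the 3 library sets. The members of each of these pairs share all but 1 or 2 bases, and the part of read assignment in the ratios was not tested.

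**Figure D4:**
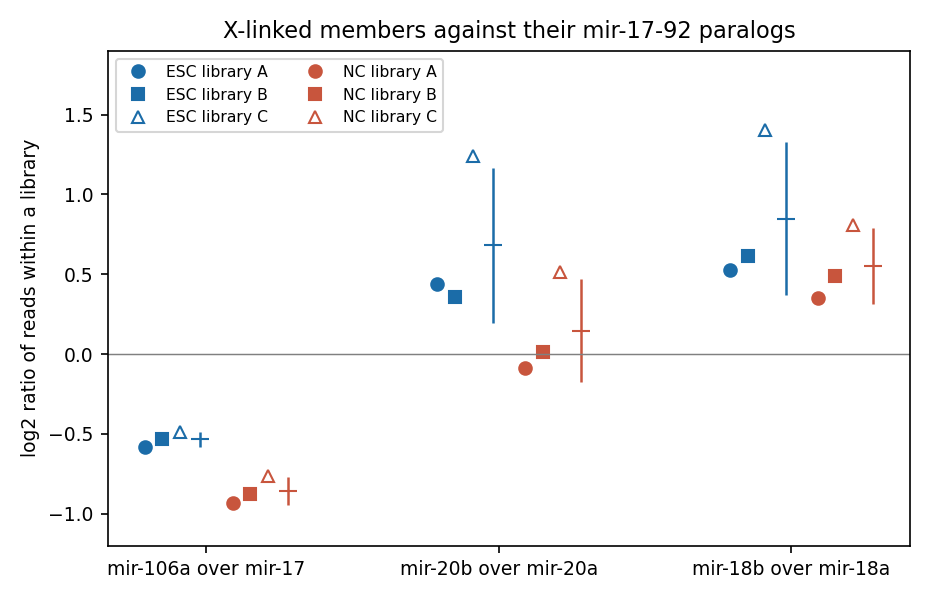
Log2 ratio of reads within a library for mir-106a over mir-17, mir-20b over mir-20a and mir-18b over mir-18a in the 3 ESC (blue) and 3 NC (red) libraries, with the group mean and SD beside the points. The groups are separate for mir-106a over mir-17 (0.667 to 0.712 against 0.523 to 0.590 before the logarithm) and overlap for the other 2 ratios.

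Seen as shares of a seed family over the 3 clusters, the X-linked genes held a steady part of the AAAGUGC reads. Each total held only genes of these 3 clusters, and any other gene with the same seed was left out. The mir-106a-363 share was 22.5%, 24.3% and 20.2% in ESCs and 23.6%, 23.9% and 20.1% in NCs (exact permutation p = 1). The mir-106b-25 share was 54.4%, 50.5% and 63.1% in ESCs and 43.0%, 43.9% and 56.1% in NCs (exact permutation p = 0.3), and the mir-17-92 share was 23.1%, 25.2% and 16.7% against 33.4%, 32.2% and 23.8% (exact permutation p = 0.2). Library by library, the mir-106b-25 share was lower and the mir-17-92 share higher in NCs, and for both the groups overlapped through library C.

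Among the AUUGCAC genes of the same clusters, mir-92a-1 of the mir-17-92 cluster held 80.7% and 80.0% in ESC libraries A and B. It held 86.8% and 87.9% in the NC ones, but in library C 43.9% in ESCs and 41.5% in NCs. The share of mir-25 was 7.62%, 6.97% and 37.6% in ESCs and 4.77%, 5.03% and 24.97% in NCs. For the X-linked pair it was 11.7%, 13.03% and 18.5% in ESCs and 8.46%, 7.10% and 33.5% in NCs. For mir-92a-1 and mir-25, library C lay farther from A and B than the same libraries of the groups lay from each other.

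**Figure D5:**
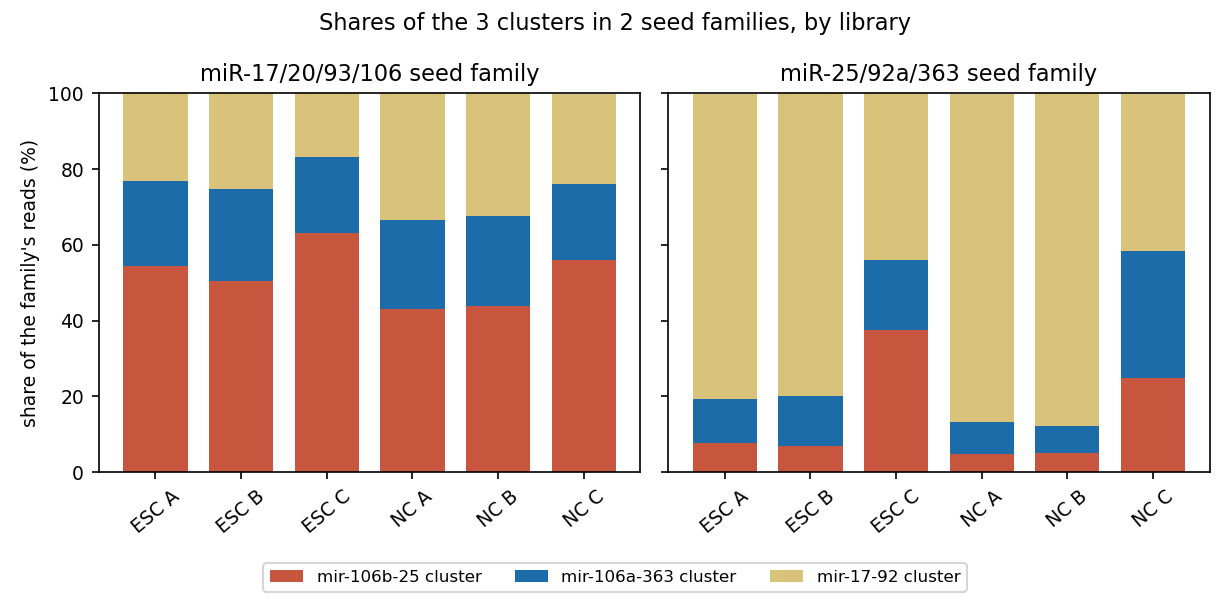
Share of the mir-106b-25 (red), mir-106a-363 (blue) and mir-17-92 (yellow) clusters in their pooled reads of 2 seeds, by library. AAAGUGC is on the left and AUUGCAC on the right. The stacked bars sum to 100% over the genes of these clusters only, with any other gene of the same seed left out. On the left the blue part stays between 20.1% and 24.3% in all 6 libraries, and on the right library C of each group differs from A and B.

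The copies mir-92a-1 and mir-92a-2 have the same mature sequence but very unequal values, with group means of 1826 and 13.9 normalized reads in ESCs and 2693 and 10.1 in NCs, a ratio of 131 and 268. For comparison, 15 pairs of gene copies with an identical mature arm and a mean of at least 20 in ESCs for the higher copy were taken. They are not a full list, since pairs such as let-7c-1 and let-7c-2 were left out. Of the 15, 12 were within 1.53-fold of each other in ESCs and 1.57-fold in NCs, such as mir-26a-1 and mir-26a-2 at 13286 and 13288 in ESCs. The other 3 were the mir-92a pair, the mir-24 pair (6.93 and 165 in ESCs) and the mir-128 pair (80.0 and listed at 0). The copies mir-19b-1 and mir-19b-2, below that minimum, had ESC means of 12.3 and 13.8. How reads that fit both copies were counted is not given in the sources used here, so the split between such copies is uncertain.

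The genes whose profile over the 6 libraries was most like that of the X-linked cluster, by the root mean square difference of centred log2 values among 281 candidates, were mir-194-2 (0.138), mir-194-1 (0.139) and mir-433 (0.146). For mir-106b-25 they were mir-434 (0.0676), mir-669c (0.113) and mir-134 (0.115). Single members lay farther from their cluster's mean profile than these, from 0.195 for mir-20b to 0.503 for mir-92a-2 on chromosome X, and at 0.154 for mir-93, 0.806 for mir-25 and 0.871 for mir-106b, so the mean profile of the Mcm7 cluster described mir-93 better than its neighbours.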

How the data were processed

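The authors deposited 1 table of 898 miRNA genes. Its signal values, as deposited by the authors, are group means of reads after each library was normalized by its own size factor. The submitters' notes name DESeq and mm10, and the adapter trimming, aligner and rule for reads that fit several genes are not given in the sources used here. The table's other columns hold the overall mean and the authors' own fold change, log2 fold change, p-value and adjusted p-value, and were not used.

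The members and lists were chosen with earlier results of these data known. Groups were taken from the labels. Because 3 times a mean is a sum of whole reads times 3 steps, reads of the 3 libraries were recovered by enumeration (tolerance 2e-10). Each size factor equalled the ratio of 1 miRNA's reads to their geometric mean over the 6 libraries, as a median of ratios would. Whether that ratio was the median was not checked. In ESCs 540 of the 549 miRNAs above 0 had a single solution, as had 583 of the 602 in NCs. For 10 further ones in NCs, mir-93 included, 1 of several solutions was kept by how alike libraries A and B were, a rule set after seeing the data. The most abundant miRNAs were not resolved, so the resolved reads covered 24.7% of the summed mean in ESCs and 20.0% in NCs. In simulated data 515 of 515 miRNAs in ESCs and 557 of 557 in NCs were resolved and right. The simulated means were capped below the level of mir-93, so the range in which it had several solutions was not covered.

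limma 3.58.1 (R 4.3.3) with voom weights and the recovered size factors was fitted to miRNAs with at least 10 reads in 3 libraries (2 where a group had 2), with Benjamini-Hochberg adjustment over all tested and calls at 0.05. In simulated counts of NCs against ESCs (332 tested), 73 of 73 miRNAs changed 4-fold were called by this fit and 7.59% of calls were false. With the covariate 64 of 73 were called and 1.54% of calls were false. In this simulation the covariate fit made fewer calls, 65 against 79, whereas in the data it made more, 135 against 51. These shares may therefore not hold for the real libraries, and changes below 4-fold were not simulated. The labels do not say whether replicates were grown independently, so p-values measure only the spread between these libraries, which may be technical. A count of 0 allows 3 reads, and intervals cover what the fit models. Log2 ratios of group means used a pseudocount of 1, which understates the change of low values. Named genes were the 9 members, the 6 mir-17-92 genes and, for each cluster, the 3 miRNAs of nearest profile. Sequences came from RefSeq (GRCm38.p6) and gene overlaps from a GENCODE annotation of GRCm38. Python 3.11.15, numpy 2.4.6, pandas 2.3.3, scipy 1.17.1 and numba 0.67.0 were used.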

Additional observations from a re-analysis of the deposited data

How the results depend on the processing

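In all 16 limma fits no member tested passed. Of these fits, 1 (limma-trend with the library set) was added to the planned ones after seeing the data. In the planned fits too, the library set came from the data and not from the labels. All 9 members were tested except under a minimum of 10 reads in every library, which left 7. No paired analysis was possible because no recovered library could be matched to a replicate label. The library set pairs libraries by rank of size factor only. Count tests on deposited counts were not run, since the values used here are normalized means. Of the log2 fold changes of members, none of which passed the test, 34 values changed sign over the alternatives. Scaling to the same total gave -0.17 for mir-106a, -0.45 for mir-18b, -0.46 for mir-20b and -0.25 for mir-106b, and moved mir-93 to -0.61 and mir-25 to -0.97. Without mir-10a in that total, the values were 0.40 for mir-19b-2, 0.33 for mir-92a-2, 0.44 for mir-363 and 0.30 for mir-93, with mir-106a at 0.75. In each of these scalings 1 member had an unadjusted limma p under 0.05, mir-93 (adjusted p = 0.104) and mir-106a (adjusted p = 0.135). Centring on the median gave 0.055 for mir-19b-2 and 0.091 for mir-363. The deeper libraries gave -0.024 for mir-18b, -0.0056 for mir-20b, 0.36 for mir-19b-2, 0.21 for mir-92a-2, -0.069 for mir-106b and 0.056 for mir-25, and the library set covariate gave 0.16 for mir-19b-2. With each library left out in turn, the range was -0.36 to 0.36 for mir-18b, -0.23 to 0.24 for mir-20b, -0.52 to 0.38 for mir-19b-2, -0.44 to 0.14 for mir-92a-2, -0.16 to 0.11 for mir-363, -0.64 to 0.78 for mir-106b and -0.97 to 0.30 for mir-25. For mir-106a (0.12 to 0.42) and mir-93 (-0.20 to -0.05) it held no change of sign. Log2 ratios of group means moved by over 1 SD in 9 cases, all of them under scaling to a total except mir-25 without ESC library C. The shallowest libraries limited mir-19b-2 and mir-92a-2, which had as few as 2 and 5 reads.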
